A study of Homo sapiens with 6 samples.

Results

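The genes described here encode the structural proteins of the extracellular matrix: collagen chains, laminin chains, fibronectin, nidogens, fibrillins, perlecan, small proteoglycans and matricellular proteins. They were chosen by symbol, as any collagen chain (COL, a number, A, a number), any laminin chain (LAMA, LAMB or LAMC and a number) and 14 further named genes, with a mean raw count over all libraries of at least 10. Of the 57905 genes in the table, 70 had such a symbol and 45 reached the count limit. All 45 were among the 15343 genes tested. The rule itself used no difference between groups, but the set was chosen with earlier results of these data known. RNA was sequenced from HK-2 (Human Kidney-2) cells, an immortalized human renal proximal tubular cell line of wild-type genotype, and no other line was sequenced. In 3 libraries the cells had received a control siRNA pool that targets no gene, and in the other 3 an siRNA pool against INO80, the ATPase of a chromatin remodeling complex. All cells were transfected with the same reagent, grown in medium with fetal bovine serum and harvested after 48 h. The labels do not say whether same-group libraries came from separate cultures, so the p-values measure only the spread between these libraries, which may be technical.

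The extracellular matrix of the renal tubule is a basement membrane on the basal side of the epithelium and an interstitial matrix beyond it. The basement membrane is made of a type IV collagen network and a laminin network, joined by nidogens and by the heparan sulfate proteoglycan perlecan. Tubular cells make most of these components themselves, whereas fibrillar collagens, decorin and lumican are classically products of fibroblasts. The matrix genes matter in the kidney because their products accumulate in interstitial fibrosis.

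The main pattern was a difference between replicate numbers, present in both groups, and a smaller difference with INO80 siRNA that appeared once the replicate number was in the fit. Libraries held from 16829273 to 23784599 counted reads. INO80 itself was at 6.43, 7.07 and 7.75 FPKM (the read count scaled to exonic length and library total) under control siRNA and at 1.91, 1.75 and 2.06 under INO80 siRNA, a log2 fold change of -1.90 ± 0.0956 (SE, adjusted p = 0.000161). Control and INO80 siRNA libraries that shared a replicate number departed from their group means in a similar way. Over all tested genes the correlations of these deviations were 0.581, 0.365 and 0.360 for numbers 1, 2 and 3, and at most 0.152 between different numbers. Over the 45 matrix genes the correlations for numbers 1, 2 and 3 were 0.924, 0.928 and 0.807. Deviations are taken from the group mean, so these correlations are tied to each other. Genes are not independent replicates, and the labels do not say what a replicate number marks. Both libraries of replicate 1 stood apart from those of replicates 2 and 3, so results below are also given within replicate numbers, with the calls that differed when replicate 1 was left out of that fit.

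The label of a proximal tubular cell was checked against marker genes. PAX8, KRT8, KRT18, KRT19, EPCAM, CDH2, VIM and GGT1 were expressed, at mean levels from 39.1 FPKM for GGT1 to 249.98 FPKM for VIM. VIM is not specific to epithelium. PAX2 and CDH1, further markers of renal epithelium, had mean counts of 6.5 and 5.33 and were too low to test. The mature transporters and receptors of the tubule were near 0: LRP2, CUBN, AQP1, ANPEP, SLC34A1 and SLC22A6 had mean counts of at most 9.17 and were not tested. Endothelial markers summed to at most 0.12 FPKM in any library and leukocyte markers to at most 0.41 FPKM. Among fibroblast and mesangial markers, PDGFRA, POSTN, THY1, COL1A2 and COL3A1 were too low to test, while LUM, DCN and COL1A1, which are also matrix genes of this set, were expressed. PDGFRB, ACTA2 and DES were tested at mean counts of 15.3, 9.67 and 10.5 and were not called. ACTA2, the smooth muscle actin of myofibroblasts, had 3, 7 and 6 reads under control siRNA and 12, 16 and 14 under INO80 siRNA, without overlap (log2 fold change 1.1 ± 0.38, adjusted p = 0.198). That list summed to between 50.9 and 116 FPKM under control siRNA and between 49.9 and 102 FPKM under INO80 siRNA, and its part in the matrix results was not tested. Of the 8 tested markers of the epithelial list none was called with the treatment alone, beside 1.75% of all tested genes. Within replicate numbers 4 were called, beside 24.8% of all tested genes. There PAX8, KRT19 and EPCAM fell by 0.11, 0.23 and 0.31 on the log2 scale and KRT18 rose by 0.19. The epithelial list, VIM included, summed to between 772 and 831 FPKM under control siRNA and between 729.69 and 852 FPKM under INO80 siRNA. Its part in the matrix results was not tested either. In RNA from a whole culture, fewer cells of a type and less RNA per cell cannot be told apart.

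In the table (GRCh37), FN1 (ENSG00000115414) spans chr2:216225163-216300895 on the minus strand and TNC chr9:117782806-117880536 on the minus strand. LAMB3 is at chr1:209788215-209825811 on the minus strand, and COL4A1 (chr13:110801318-110959496) and COL4A2 (chr13:110958159-111165374) lie head to head with overlapping ends. Promoter sequences were matched for 34 of the 45 genes in RefSeq (GRCh38.p14), as windows of 300 bases that run from 250 bases before the start site to 50 after it. The first sequence is shown because COL4A1 and COL4A2, which encode chains of a single collagen molecule, are transcribed in opposite directions from start sites 127 bases apart on chromosome 13, so that 226 bases of their windows are the same DNA. The window of COL4A2 (chr13:110307034-110307333, plus strand) therefore also holds the start of COL4A1. FN1 (chr2:215436019-215436318, minus strand) is shown as the most abundant gene of the set, LAMB3 (chr1:209652376-209652675, minus strand) and TNC (chr9:115118108-115118407, minus strand) as members whose levels were lower under INO80 siRNA in every pair. Each sequence reads 5′ to 3′ on the strand of its gene, and capitals mark, on either strand, the TATA box letters TATAAA, the GC box core GGGCGG, the CCAAT box and the AP-1 type letters TGANTCA.
COL4A2: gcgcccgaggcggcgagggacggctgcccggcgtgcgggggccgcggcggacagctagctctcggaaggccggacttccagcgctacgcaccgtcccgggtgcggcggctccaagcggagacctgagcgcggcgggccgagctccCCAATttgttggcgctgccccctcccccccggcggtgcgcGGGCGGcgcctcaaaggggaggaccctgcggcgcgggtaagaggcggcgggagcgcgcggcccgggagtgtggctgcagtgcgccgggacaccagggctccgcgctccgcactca
FN1: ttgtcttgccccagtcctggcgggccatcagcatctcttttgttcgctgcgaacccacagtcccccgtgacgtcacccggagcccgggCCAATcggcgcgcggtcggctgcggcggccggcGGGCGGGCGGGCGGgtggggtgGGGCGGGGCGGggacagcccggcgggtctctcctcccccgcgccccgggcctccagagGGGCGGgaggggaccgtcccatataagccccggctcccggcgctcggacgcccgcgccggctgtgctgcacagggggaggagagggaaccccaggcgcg
LAMB3: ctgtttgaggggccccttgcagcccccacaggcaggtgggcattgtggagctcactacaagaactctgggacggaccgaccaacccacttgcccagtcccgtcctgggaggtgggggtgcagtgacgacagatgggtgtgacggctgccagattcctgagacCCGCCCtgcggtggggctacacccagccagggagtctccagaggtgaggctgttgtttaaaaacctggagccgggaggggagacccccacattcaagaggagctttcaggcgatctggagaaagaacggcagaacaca
TNC: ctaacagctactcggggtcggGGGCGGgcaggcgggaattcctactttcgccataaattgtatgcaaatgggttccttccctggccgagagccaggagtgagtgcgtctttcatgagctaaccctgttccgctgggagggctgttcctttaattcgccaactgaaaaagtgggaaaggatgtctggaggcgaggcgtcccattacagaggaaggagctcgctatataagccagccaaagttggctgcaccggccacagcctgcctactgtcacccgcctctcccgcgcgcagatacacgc
The GC box core GGGCGG was present in 27 of the 34 matrix promoters (79.4%) and in 45.0% of all 35116 RefSeq promoters of the same length. Median GC content was 69.5% in the matrix promoters and 58.7% in all promoters. CCAAT was found in 29.4% of matrix promoters against 34.6% of all, TATAAA in 11.8% against 11.5%, and TGANTCA in 2.94% against 7.71%, with LAMA3 as the single matrix gene that held the last. These matches describe the letters of the windows and are no evidence of binding.

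Fibronectin dominated the matrix transcripts. The 45 genes took 5.45, 4.35 and 3.82% of counted reads in control libraries 1, 2 and 3 and 5.13, 4.24 and 3.58% in INO80 siRNA libraries 1, 2 and 3. FN1 alone supplied between 52.1 and 62.3% of these matrix reads. Without FN1, the matrix share was between 1.76 and 2.05% under control siRNA and between 1.68 and 2.06% under INO80 siRNA, so the groups overlapped. On the FPKM scale, which corrects for exonic length, the most abundant of the genes reported were, in order, FN1, COL4A1, SPARC, COL4A2, THBS1, LAMC1, LAMB1, COL6A2 and LUM. Across libraries the range of COL4A1 overlapped that of SPARC, SPARC that of COL4A2, and COL6A2 that of LUM. Within every library, however, COL4A1 was above SPARC and SPARC above COL4A2. COL6A2 and LUM changed order, with LUM higher only in the replicate 1 libraries, so these neighbours were not separated beyond their spread. At the other end, BGN, COL5A2, LAMA2 and COL17A1 were below 1 FPKM in every library. The plot of levels by library shows the whole range.

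**Figure D1:**
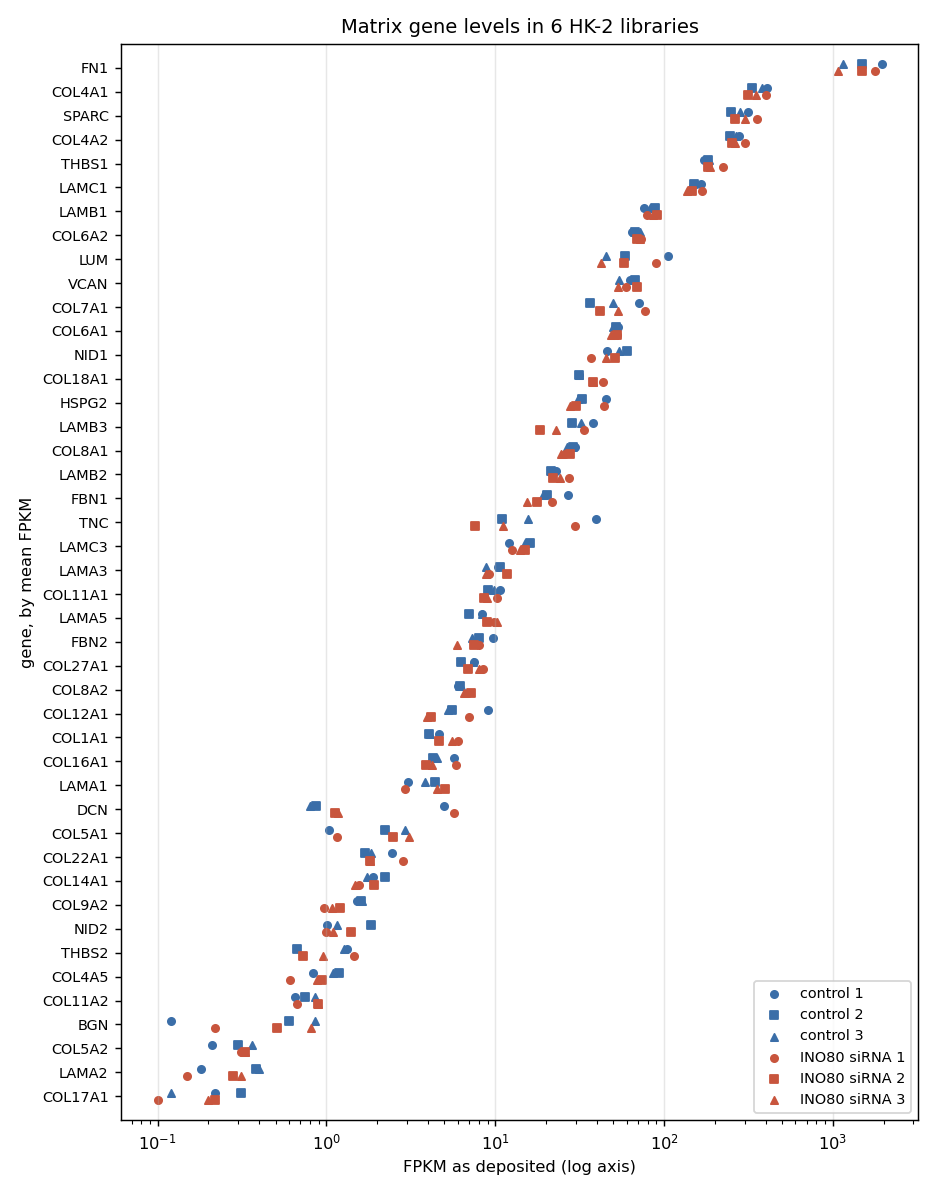
Deposited FPKM (log axis) of the 44 matrix genes reported, in each of the 6 libraries, ordered by mean, with control siRNA in blue, INO80 siRNA in red and the replicate number given by the marker shape. FN1 lay between 1076 and 1961 FPKM, and DCN, TNC and BGN show the widest spread, with replicate 1 apart from replicates 2 and 3 in both colours.

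The count limit separated the genes clearly. COL17A1 (mean count 26.2), BGN (27.2) and COL5A2 (46.0) lay just inside it, and COL6A3 (8.83), COL4A4 (8.50) and COL24A1 (8.33) just outside. The 25 genes under the limit included partners of expressed chains. COL1A1, the alpha 1 chain of type I collagen, had 770, 810 and 774 reads under control siRNA and 1225, 1084 and 1293 under INO80 siRNA. COL1A2, the alpha 2 chain of the same molecule, had 2, 0 and 1 reads under control siRNA and 0 in all libraries under INO80 siRNA. COL3A1 was detected by 1 read in a single library. COL6A1 and COL6A2 were well expressed, while COL6A3, the third chain of the usual type VI molecule, had between 5 and 14 reads per library. LAMA4 had 2 reads in 1 library and none elsewhere. A count of 0 allows up to 3 reads, and this limit covers counting error only.

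To ask whether INO80 siRNA changed matrix gene expression, the treatment was first fitted alone. No matrix gene was called at an adjusted p under 0.05 by edgeR's quasi-likelihood test, in either direction, beside 1.49% of all tested genes called lower and 0.261% called higher. At an unadjusted p under 0.05 there were 6, namely 3 lower (COL9A2 and NID1 among them) and 3 higher (COL18A1, LAMA5 and COL1A1), or 13.3% of the set beside 16.4% of all tested genes. DESeq2 called 1 gene, COL18A1 (higher), and limma on log2 FPKM called 0. Log2 fold changes ran from -0.56 for COL9A2 to 0.33 for COL1A1, with a median of -0.05 over the 45 genes and 0.01 over all tested genes. The CPM ranges of the groups did not overlap for 1 gene that was lower, COL9A2, beside 11.5% of all tested genes, and for 3 that were higher, COL18A1, LAMA5 and COL8A2, beside 11.3% of all tested genes.

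The replicate number carried most of the spread. In a fit with treatment and replicate number, 38 of the 45 matrix genes passed the test for the replicate term, beside 26.7% of all tested genes. Matrix genes were counted more deeply than most, with a median of 2700 reads per library beside 442 for all tested genes. Among the 1668 tested genes at or above that median the replicate term was called for 49.0%, and among the 23 matrix genes at or above it for 91.3%. Of a gene's sum of squares of log2 CPM (the count scaled to library size), the share that went with the replicate number had a median of 84.5% over the matrix genes and 48.3% over all tested genes. The median share of the treatment was 11.6% over the matrix genes and 21.5% over all tested genes, and that of the remainder 2.46 and 12.7%. These medians were taken separately and do not describe a single gene. The replicate number takes more terms in the fit than the treatment, which raises its share in any gene. The replicate number held the largest share in 37 of the 45 genes (82.2%), beside 54.0% of all tested genes. Replicate 1 deviated in the same direction in both groups for 40 of 45 genes (88.9%), with 27 high and 13 low, beside 70.4% of all tested genes.

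**Figure D2:**
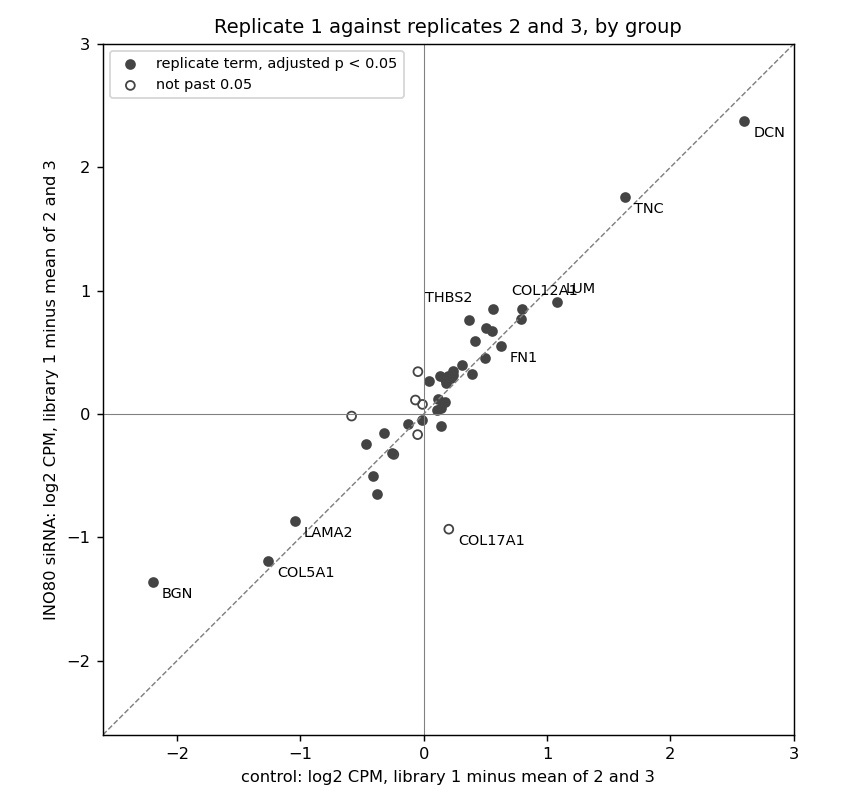
For each of the 44 matrix genes reported, log2 CPM of replicate 1 minus the mean of replicates 2 and 3, under control siRNA (x axis) and under INO80 siRNA (y axis). Most points lie near the dashed line of equal differences, from BGN at -2.20 and -1.36 to DCN at 2.60 and 2.38, with COL17A1 (mean count 26.2) the farthest from it, and filled points passed the test for the replicate term.

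Decorin gave the widest example. DCN, a small leucine-rich proteoglycan that binds collagen fibrils, was at 4.95, 0.87 and 0.80 FPKM under control siRNA and at 5.73, 1.12 and 1.17 FPKM under INO80 siRNA, for replicates 1, 2 and 3. Its relative lumican (LUM), which lies next to DCN on chromosome 12, was at 106, 59.0 and 45.6 FPKM and at 89.3, 58.1 and 42.5 FPKM. In both genes the replicate 1 library was the highest of its group. Tenascin C (TNC), a matricellular protein of remodeling tissue, was at 39.3, 11.0 and 15.6 FPKM and at 29.7, 7.54 and 11.1 FPKM. Replicate 1 was higher by 1.63 on the log2 scale in controls and by 1.76 under INO80 siRNA for TNC, and by 0.80 and 0.85 for COL12A1, a collagen that associates with fibril surfaces. Other genes were low in replicate 1. COL5A1, a chain of the minor fibrillar type V collagen, was at 1.03, 2.22 and 2.93 FPKM under control siRNA and at 1.15, 2.48 and 3.07 FPKM under INO80 siRNA. LAMA2 and BGN were low in replicate 1 as well, with log2 differences of -1.04 and -2.20 in controls, although both were below 1 FPKM throughout.

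Compared within replicate numbers, 14 matrix genes were called lower under INO80 siRNA and 9 higher, beside 13.4% of all tested genes called lower and 11.4% called higher. As shares of the 45 these are 31.1 and 20%. Deeply counted genes were called more often in general. At or above the matrix median count, 23.1% of tested genes were called lower and 20.9% higher, and of the 23 matrix genes there 39.1 and 26.1%. The changes were small, between 0.678-fold (COL9A2) and 1.25-fold (COL1A1). In 22 of the 23 genes all pairs moved the same way, THBS1 being the exception. Such agreement is favoured by the choice of genes called in that fit. Every pair was lower in 19 of the 45 genes (42.2%, beside 25.9% of all tested genes) and higher in 12 (26.7%, beside 26.8%). The 22 genes that were not called had log2 fold changes from -0.38 to 0.15, and 13 of them were below 0. With the treatment alone none of these 23 was called by edgeR as fitted here, 5 were called when the filter on low counts was left out (LAMB3, COL1A1, LAMA5 and COL18A1 among them), and 4 without replicate 1 (LAMB3, COL12A1 and COL18A1 among them), where 3.37% of all tested genes were called. With each replicate number left out in turn, the fit within replicate numbers called 11 of the 23 every time. Among them were LAMB3, TNC, COL12A1, NID1, FBN1, FBN2, COL9A2, COL18A1, LAMA5 and COL1A1. HSPG2, SPARC, COL4A5 and LUM were called in 1 of these 3 fits, and COL14A1 and COL27A1 in none. These fits share libraries with the fit that chose the 23, so repeated calls are partly built in. The share of all tested genes called every time was not taken. Without replicate 1, 19 were still called, and LUM, COL14A1, COL27A1 and THBS1 were not. That fit also called 5 further matrix genes, COL4A1, LAMC1, LAMC3 and COL11A1 lower and LAMA1 higher, and called 25.4% of all tested genes.

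**Figure D3:**
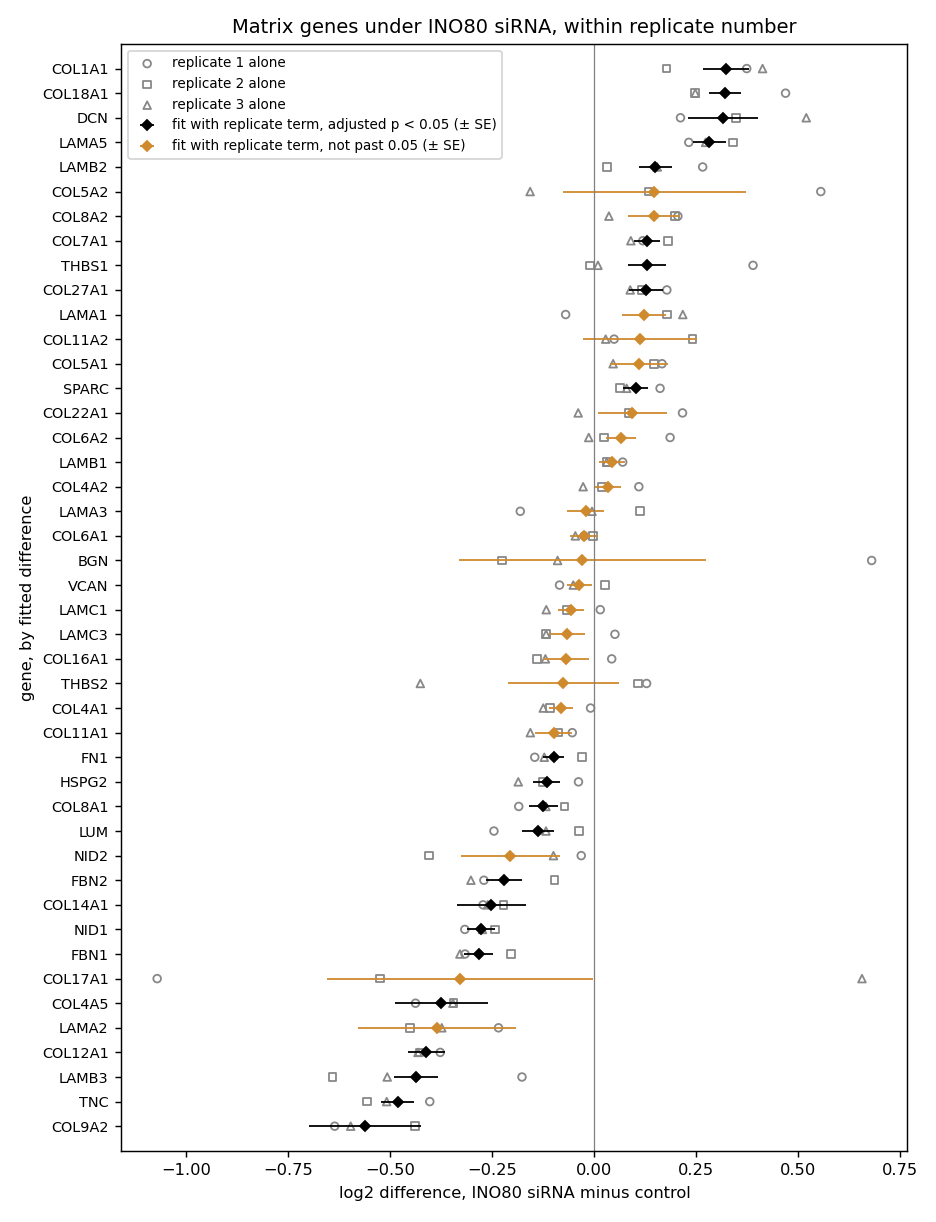
Log2 difference of INO80 siRNA minus control for the 44 matrix genes reported, within replicate number: diamonds are the fitted value with its SE, black where the adjusted p is under 0.05, and open symbols are the 3 single pairs. COL9A2, TNC, LAMB3 and COL12A1 lie lowest, between -0.56 and -0.41, and COL1A1, COL18A1 and DCN highest, at about 0.32.

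Laminin chains, which assemble into trimers of the basement membrane, did not move alike. LAMB3, a beta chain of epithelial basement membranes, was at 37.9, 28.5 and 32.3 FPKM under control siRNA and at 33.5, 18.5 and 23.0 FPKM under INO80 siRNA. The groups overlapped, because replicate 1 was the highest library of each, yet each pair was lower. Fitted within replicate numbers, LAMB3 fell by 0.44 ± 0.05 on the log2 scale (SE, adjusted p = 1.24e-06), and with the treatment alone its adjusted p was 0.407. Its pairs were uneven, at -0.18, -0.64 and -0.51. Without replicate 1 it was also called with the treatment alone (adjusted p = 0.027). LAMA3, an alpha chain of the same epithelia, was at 10.4, 10.7 and 8.78 FPKM and at 9.14, 11.8 and 8.86 FPKM, and its fitted log2 fold change was -0.02 ± 0.05 with pairs on both sides of 0.

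The chains of laminin-511, a laminin of kidney basement membranes, included a gene that was higher. LAMA5, its alpha chain, was at 8.36, 6.99 and 8.35 FPKM under control siRNA and at 9.81, 8.95 and 10.2 FPKM under INO80 siRNA, with no overlap. Within replicate numbers it rose by 0.28 ± 0.04 on the log2 scale (adjusted p = 6.31e-06), and with the treatment alone the adjusted p was 0.179. LAMA5 overlaps ADRM1 on the opposite strand, which had 126% as many reads, and the strand setting of the counting is not given in the sources used here, so the LAMA5 value is uncertain. LAMB1 and LAMC1, the other chains, had log2 fold changes of 0.04 ± 0.03 and -0.06 ± 0.03 and were not called. Without replicate 1, LAMC1 was called lower within replicate numbers (-0.10, adjusted p = 5.86e-04). LAMB1 overlaps DLD on the opposite strand, which had 15.8% as many reads. LAMB2, the beta chain that replaces LAMB1 in mature glomerular basement membrane, was at 22.8, 21.3 and 21.5 FPKM and at 27.3, 21.98 and 24.3 FPKM, and rose by 0.15 ± 0.04 (adjusted p = 0.00819). Of the 10 laminin chains, 2 were called lower and 2 higher, beside 13.4 and 11.4% of all tested genes and 23.1 and 20.9% of deeply counted ones, and all 10 passed the test for the replicate term, beside 26.7% of all tested genes.

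Type IV collagen, the network former of basement membranes, was the most abundant collagen. COL4A1 was at 407, 334 and 379 FPKM under control siRNA and at 404, 313 and 352 FPKM under INO80 siRNA. COL4A2 was at 278, 245 and 266 FPKM and at 300, 251 and 265 FPKM. Both genes were highest in replicate 1 and lowest in replicate 2, in both groups, and their groups overlapped. The COL4A1 to COL4A2 ratio of FPKM was 1.46, 1.36 and 1.42 in controls and 1.35, 1.25 and 1.33 under INO80 siRNA, lower in each pair. The ends of the genes overlap on opposite strands, so reads there could be split between them by the counting. Neither chain was called, with log2 fold changes within replicate numbers of -0.08 ± 0.03 (adjusted p = 0.0533) for COL4A1 and 0.04 ± 0.03 (adjusted p = 0.455) for COL4A2. Without replicate 1, COL4A1 was called lower in that fit (-0.12, adjusted p = 9.70e-07). COL4A5, a chain of the other type IV networks, was near 1 FPKM, at 0.83, 1.19 and 1.1 and at 0.61, 0.94 and 0.88, and fell by 0.37 ± 0.11 (adjusted p = 0.0171). Its network partners COL4A3, COL4A4 and COL4A6 were under the count limit.

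The linkers of the basement membrane were lower where they were called. NID1, the nidogen that bridges laminin and type IV collagen, was at 46.2, 60.2 and 54.2 FPKM under control siRNA and at 37.0, 51.4 and 45.4 FPKM under INO80 siRNA. The groups overlapped, because replicate 1 was low in both, but the pairs were close to each other at -0.32, -0.24 and -0.27. Within replicate numbers NID1 fell by 0.28 ± 0.03 on the log2 scale (adjusted p = 9.60e-07). HSPG2, which encodes perlecan, was high in replicate 1 at 45.2 FPKM beside 32.7 and 31.0 in controls, and at 43.9 beside 30.3 and 27.6 FPKM under INO80 siRNA, and fell by 0.12 ± 0.03 (adjusted p = 0.0122). NID2 was much lower than NID1, between 0.99 and 1.83 FPKM, and was not called. COL18A1, the multiplexin collagen that gives rise to endostatin, was at 31.5 FPKM in all 3 control libraries. Under INO80 siRNA it was at 43.6, 37.8 and 37.9 FPKM, above every control. It rose by 0.32 ± 0.04 within replicate numbers (adjusted p = 8.15e-07), while with the treatment alone its adjusted p was 0.0898 in edgeR and 0.0143 in DESeq2. COL18A1 overlaps SLC19A1 on the opposite strand, which had 12.5% as many reads.

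Fibronectin and the fibrillins form the fibrils that other matrix proteins assemble on. All 3 genes were called lower within replicate numbers, beside 13.4% of all tested genes. FN1 was at 1961, 1496 and 1156 FPKM under control siRNA and at 1771, 1481 and 1076 FPKM under INO80 siRNA. The range within each group was far wider than the difference between paired libraries, and replicate 1 was highest in both groups. FN1 fell by 0.10 ± 0.03 on the log2 scale within replicate numbers (adjusted p = 0.00756), and its adjusted p was 0.877 with the treatment alone. The call within replicate numbers was not kept without replicate 3 (adjusted p = 0.382). FBN1, the main fibrillin of adult microfibrils, was at 27.0, 20.3 and 19.1 FPKM and at 21.6, 17.8 and 15.4 FPKM. It fell by 0.28 ± 0.03 (adjusted p = 9.89e-07), and FBN2 fell by 0.22 ± 0.04 (adjusted p = 5.77e-04). FBN1 exceeded FBN2 by 2.36 to 2.79 times per length. The genes whose log2 CPM followed FN1 most closely over the 6 libraries were PCDH20 (Pearson r = 0.995), CECR2 (0.994) and COL6A1 (0.994), a description over libraries that share the replicate pattern.

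**Figure D4:**
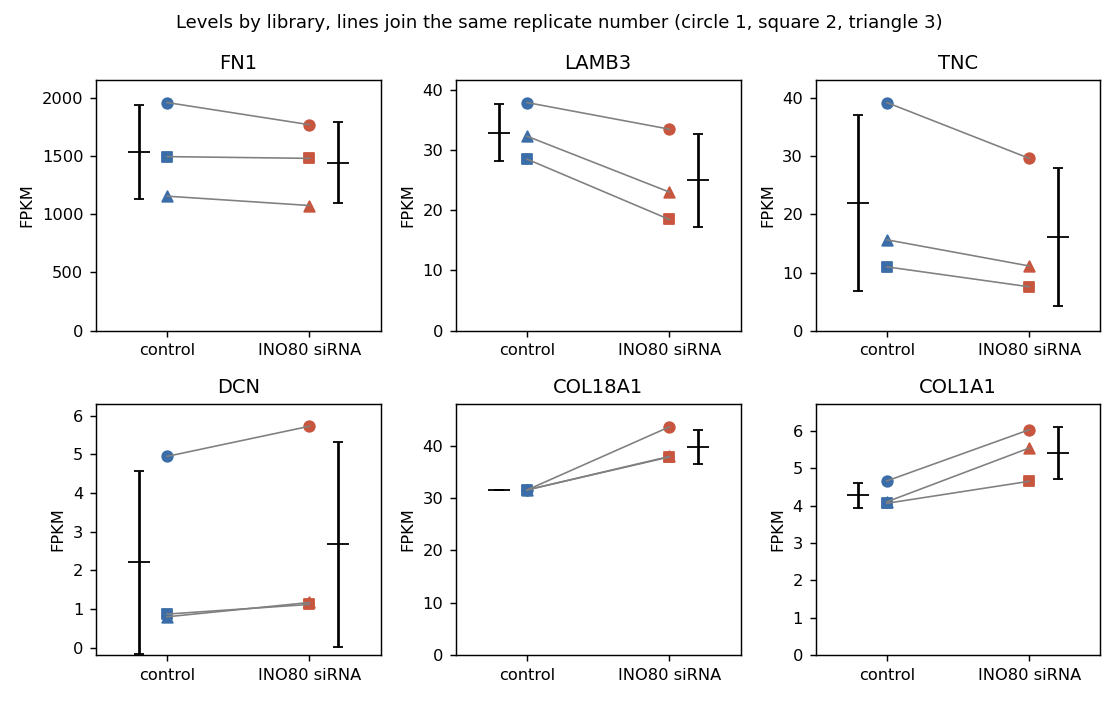
FPKM of FN1, LAMB3, TNC, DCN, COL18A1 and COL1A1 in each library, with lines that join libraries of the same replicate number and bars for the group mean ± SD (n = 3). Lines for FN1, LAMB3 and TNC slope down and those for DCN, COL18A1 and COL1A1 slope up, while in FN1, TNC and DCN the replicate 1 libraries stand well above the others.

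Among fibrillar collagens, which assemble into the banded fibrils of interstitial tissue, 2 of 6 were called higher and none lower within replicate numbers with all libraries, beside 11.4% of all tested genes called higher and 13.4% lower. COL1A1 was at 4.66, 4.06 and 4.10 FPKM under control siRNA and at 6.03, 4.65 and 5.54 FPKM under INO80 siRNA. The second INO80 siRNA library lay just under the highest control. COL1A1 rose by 0.32 ± 0.06 on the log2 scale within replicate numbers (adjusted p = 1.02e-04), and with the treatment alone its adjusted p was 0.214. COL27A1 rose by 0.13 ± 0.04 (adjusted p = 0.0238), a call that was not kept without replicate 1. COL11A1, which initiates cartilage fibrils, was the most abundant fibrillar chain at 10.7, 9.02 and 9.83 FPKM and at 10.3, 8.58 and 8.93 FPKM, and was not called with all libraries, but was called lower within replicate numbers when replicate 1 was left out (-0.13, adjusted p = 0.0405). COL5A1, COL5A2 and COL11A2 were not called either.

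Collagens that sit on fibril surfaces (FACIT collagens) were called lower in 3 of 5 genes and higher in none, beside 13.4% of all tested genes called lower. COL12A1 was at 9.08, 5.54 and 5.24 FPKM under control siRNA and at 6.98, 4.16 and 3.93 FPKM under INO80 siRNA, so that the replicate 1 library of the treated group exceeded the other controls. Within replicate numbers it fell by 0.41 ± 0.05 on the log2 scale (adjusted p = 2.12e-07), with pairs of -0.38, -0.43 and -0.43. Without replicate 1 it was also called with the treatment alone (adjusted p = 0.0165). COL9A2, a chain of type IX collagen, was at 1.52, 1.61 and 1.63 FPKM and at 0.97, 1.2 and 1.08 FPKM, without overlap. It fell by 0.56 ± 0.14 (adjusted p = 0.00344), on a mean of 113 reads per library, and had no difference between replicate numbers past the test (adjusted p = 0.822). Its partners COL9A1 and COL9A3 had a mean of 1 read per library. COL14A1 fell by 0.25 ± 0.08 (adjusted p = 0.0296), a call that was not kept when any replicate number was left out. COL16A1 and COL22A1 were not called.

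The beaded-filament, anchoring and short-chain collagens changed little. COL6A1 and COL6A2, chains of the type VI microfilaments, had log2 fold changes of -0.02 ± 0.03 and 0.07 ± 0.04 within replicate numbers and were not called. COL7A1, the anchoring fibril collagen under stratified epithelia, followed the replicate number at 71.3, 36.6 and 49.6 FPKM under control siRNA and at 77.4, 41.9 and 53.4 FPKM under INO80 siRNA. It rose by 0.13 ± 0.03 (adjusted p = 0.00356), with all pairs higher. COL8A1, a short-chain network collagen of vessels and Descemet's membrane, fell by 0.12 ± 0.04 (adjusted p = 0.0108), while COL8A2, its partner, was at 6.01, 6.21 and 6.28 FPKM and at 6.92, 7.21 and 6.52 FPKM without overlap but was not called (adjusted p = 0.0955). The COL8A1 to COL8A2 ratio of FPKM was 4.91, 4.65 and 4.21 in controls and 3.75, 3.85 and 3.78 under INO80 siRNA, which did not overlap.

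Matricellular proteins, which modulate contact between cells and matrix more than they build it, went in both directions. TNC fell by 0.48 ± 0.04 on the log2 scale within replicate numbers (adjusted p = 1.16e-09), with pairs of -0.40, -0.56 and -0.51, whereas its adjusted p with the treatment alone was 0.765. SPARC, a collagen-binding glycoprotein, was at 316, 248 and 281 FPKM under control siRNA and at 353, 262 and 300.3 FPKM under INO80 siRNA. It rose by 0.10 ± 0.03 (adjusted p = 0.0150). THBS1, a thrombospondin that activates latent transforming growth factor beta, was at 172, 182 and 185 FPKM and at 225, 183 and 188 FPKM, so a single library, INO80 siRNA replicate 1, was high. Its rise of 0.13 ± 0.05 (adjusted p = 0.0418) was not kept without replicate 1, where the log2 fold change was -0.0037. THBS2 was 129 to 272 times lower per length than THBS1 and was not called.

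The interstitial proteoglycans were set mainly by the replicate number. Within replicate numbers DCN rose by 0.32 ± 0.09 on the log2 scale (adjusted p = 0.00771), with pairs of 0.21, 0.35 and 0.52, and LUM fell by 0.14 ± 0.04 (adjusted p = 0.0124), a call that was not kept without replicate 1. Versican (VCAN), a large hyaluronan-binding proteoglycan, was at 63.2, 67.4 and 54.4 FPKM under control siRNA and at 59.5, 69.5 and 53.1 FPKM under INO80 siRNA and was not called. Biglycan (BGN) was at 0.12, 0.60 and 0.85 FPKM and at 0.22, 0.51 and 0.81 FPKM. BGN overlaps HAUS7 on the opposite strand, which had 223% as many reads, so its level is uncertain.

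Genes that make, export, process, break down or bind matrix proteins were examined as lists. With the treatment alone a single gene of these lists was called, beside 1.75% of all tested genes. It was the dystroglycan gene DAG1, a laminin receptor. DAG1 rose by 0.35 ± 0.07 on the log2 scale (adjusted p = 0.0457) from a mean of 12.2 to 15.6 FPKM. The median log2 fold changes of the lists lay between -0.14 for matrix degradation and its inhibitors and 0.0029 for non-integrin receptors, beside 0.01 over all tested genes. Within replicate numbers, collagen modification and folding had 4 lower and 3 higher of 18 tested, export from the endoplasmic reticulum 3 lower and 1 higher of 14, and procollagen processing and cross-linking 4 lower and 3 higher of 15, beside 13.4% of all tested genes called lower and 11.4% higher. Matrix degradation and its inhibitors had 8 lower and 4 higher of 23, other matrix genes 7 lower and 5 higher of 31, and receptors 2 lower and 2 higher of 10. With so few genes per list, several of these counts are near the shares over all tested genes. The following values are from the fit within replicate numbers. The lysyl hydroxylase PLOD3 rose by 0.17 ± 0.04 (adjusted p = 0.00119), and the prolyl 3-hydroxylases LEPREL1 and LEPREL2 fell by 0.15 ± 0.04 and 0.17 ± 0.04. P4HA3, a prolyl 4-hydroxylase subunit, was not called at 0.27 ± 0.10 (adjusted p = 0.0532). Among coat proteins of the vesicles that carry procollagen, SEC13 fell by 0.24 ± 0.05, SEC23B by 0.19 ± 0.05 and SEC23A by 0.11 ± 0.04, and SEC24B was not called at -0.12 ± 0.05.

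Enzymes that act on matrix outside the cell also moved in both directions within replicate numbers. LOX, the lysyl oxidase that cross-links collagen and elastin, rose by 0.42 ± 0.05 on the log2 scale (adjusted p = 5.86e-07), and BMP1, the procollagen C-proteinase, rose by 0.15 ± 0.04. LOXL1 fell by 0.27 ± 0.07 and the tolloid-like protease TLL2 by 0.45 ± 0.09. The membrane-type metalloproteinases MMP14 and MMP24 fell by 0.32 ± 0.03 (adjusted p = 7.65e-08) and 0.51 ± 0.04 (adjusted p = 4.01e-10). Of the inhibitors, TIMP2 fell by 0.26 ± 0.04 and TIMP1 rose by 0.13 ± 0.04. Among other matrix genes, EFEMP1 (fibulin-3) rose by 0.22 ± 0.04, while NOV, THBS3 and MFAP5 fell by 0.39 ± 0.07, 0.26 ± 0.05 and 1.1 ± 0.28, the last from a mean of 0.52 to 0.247 FPKM. Of the receptors, GPR56, an adhesion G protein-coupled receptor for collagen III, rose by 0.77 ± 0.04 (adjusted p = 1.90e-12), syndecan-1 (SDC1) fell by 0.30 ± 0.04 (adjusted p = 6.04e-07), and SDC4 was not called at -0.09 ± 0.04.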

How the data were processed

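Poly(A) RNA of 6 HK-2 libraries was prepared with a directional kit and sequenced as paired ends. The authors deposited 1 table with a raw read count and an FPKM per gene and library. The submitters' processing notes name HISAT2 2.0.1 and HTSeq and the build hg19, whereas the study's methods name ELAND and hg38; gene coordinates in the table are GRCh37. The deposited FPKM is the count divided by exonic length and library total, without further scaling. The counting strand setting is not given in the sources used here, so reads of overlapping genes on opposite strands cannot be told apart. Another listed gene overlapped the span of 28 of the 45 matrix genes, and for 8 it had at least 5% as many reads.

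Counts were analysed in R 4.3.3 with edgeR 4.0.16: filterByExpr, TMM scaling, the quasi-likelihood test and Benjamini-Hochberg adjustment over 15343 genes, called at an adjusted p under 0.05 with no fold limit. Treatment was fitted alone, as the main fit, and with replicate number as a block. SEs of log2 fold changes were derived from the F statistic. Same-numbered libraries deviated together in all 3 pairs (correlations over 0.1), so the numbers were taken as pairs. The highest correlation between different numbers, 0.152, also passed that limit, so the limit alone does not separate the pairs. The pairing comes from the numbers in the sample labels and from this check on the same data. Alternatives were DESeq2 1.42.0, limma 3.58.1 on log2(FPKM + 0.1) and log2(FPKM + 1), other scalings, no filter, and leaving out libraries. The fits were tested on simulated data. Sequences are from RefSeq promoters (GRCh38.p14), which are on another build than the table and were matched by symbol. The genes named are INO80, the matrix genes called within replicate numbers, the 10 with the highest FPKM, the chains of selected collagens and laminins, genes nearest the count limit, and per list the 4 with the smallest p with the treatment alone; other genes are named where a count or ratio needed them. A matrix gene that enters the counts and sums is not reported here, so 44 of the 45 could be named. The members and lists were chosen with earlier results of these data known.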

Additional observations from a re-analysis of the deposited data

How the results depend on the processing

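Calls of matrix genes with the treatment alone, 0 lower and 0 higher, depended on how replicate number and low counts were treated. With the replicate block they were 14 lower and 9 higher (24.8% of all tested genes called), with DESeq2 and the replicate block 9 lower and 5 higher (13.9%), without the filter on low counts 2 lower (LAMB3 among them) and 3 higher (COL1A1, LAMA5 and COL18A1; 2.43%), and with DESeq2 alone 1 higher (4.58%). Median-ratio scaling, total-count scaling, a library size without matrix genes and limma at both pseudocounts also gave 0 and 0. Leaving out a library or a replicate number gave 0 to 3 lower and 0 to 1 higher, the highest values being without replicate 1. With the replicate block and without replicate 1, 2 or 3, there were 16, 11 and 8 lower and 8, 6 and 5 higher, with 25.4, 17 and 14.6% of all tested genes called. The replicate term was called for 31 to 39 matrix genes under other settings, beside 11.6 to 32% of all tested genes. When a replicate number was left out it was called for 26 to 34, beside 11.1 to 21.6%. Genes of the lists called numbered 1 with the treatment alone, 46 with the replicate block, 7 without the filter, 3 with DESeq2, 28 with DESeq2 and the replicate block, 0 with limma at both pseudocounts, 0 to 8 when a library or replicate number was left out, and 57, 33 and 30 with the replicate block and without replicate 1, 2 or 3. INO80 remained called lower in all these fits. Of 54 single genes followed, 41 kept their direction under every setting. Log2 fold changes with the treatment alone crossed 0 when a library or a replicate number was left out, with these ranges: FN1 -0.30 to 0.13, COL4A1 -0.20 to 0.021, SPARC -0.036 to 0.22, COL4A2 -0.062 to 0.10, THBS1 -0.0036 to 0.21, LAMC1 -0.16 to 0.024, LUM -0.52 to 0.29, COL7A1 -0.18 to 0.43, COL6A1 -0.065 to 0.026, HSPG2 -0.36 to 0.10, TNC -1.27 to 0.30, LAMA3 -0.15 to 0.066, DCN -0.97 to 1.69. With the replicate block and without replicate 1, COL4A2 was at -0.0068, THBS1 at -0.0037 and LAMA3 at 0.054. The cause of these changes was not tested. With the replicate block SEs were largest for genes with few reads, COL17A1, BGN and COL5A2, with mean counts of 26.2, 27.2 and 46.0. They were 0.33, 0.30 and 0.22 on the log2 scale. With the treatment alone SEs were largest for DCN, BGN and TNC, at 0.84, 0.60 and 0.59. DCN and TNC had mean counts of 390 and 3246.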
